A study of Mus musculus with 6 samples.

Results

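Among the accessible chromatin regions measured by ATAC-seq in sorted dopaminergic nuclei of the mouse ventral tegmental area, 518 of 189575 regions on chromosomes 1 to 19 were less accessible in all 3 Ogt knockdown libraries than in all 3 control libraries by a wide gap. They were chosen on the measured values themselves: accessibility is given as CPM, the reads of a region per 1000000 reads in all regions of that library, the lowest control CPM had to be at least 2.5 times the highest knockdown CPM, and the control mean had to be at least 2 CPM. Of the 112832 autosomal regions with that control mean, 0.459% met the rule. With the groups exchanged, 820 of 103430 regions (0.793%) met it as regions of higher accessibility. The size of the difference between the groups is therefore fixed by the choice and is described without a test. Location, neighbourhood, nearest genes and promoter sequence were not used in the choice.

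The knockdown group was 3 libraries labelled with the genotype Ogtflox+/Y and the control group was 3 libraries labelled Ogtflox-/Y. Both groups had received the same pair of adeno-associated viruses in the ventral tegmental area, AAV-TH-Cre, in which a Th promoter drives Cre recombinase, and AAV-DIO-H2B-EGFP, which labels the nuclei of Cre-expressing cells, and EGFP-positive nuclei were sorted. Cre in nuclei with the floxed allele is meant to delete Ogt, so a cell with low Th promoter activity would be neither deleted nor labelled. Age is not given in the labels, and they do not say whether the libraries came from separate animals, so the spread between libraries may be technical. The title of knockdown replicate 1 names the control genotype although its genotype field says Ogtflox+/Y. It is written here as a knockdown library by that field. Leaving it out, which can only relax the rule, gave 814 regions. Placing it with the controls instead left 16 regions, none of them among the 518.

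Accessible regions are stretches of DNA that the transposase can enter, mostly promoters next to gene starts and enhancers away from them, and their accessibility depends on the proteins bound there. Ogt encodes O-GlcNAc transferase, which attaches N-acetylglucosamine to serines and threonines of nuclear and cytoplasmic proteins, among them RNA polymerase II and many transcription factors, and which also cleaves the transcriptional coregulator HCFC1. Ogt lies on the X chromosome, so a single floxed allele is the only copy in a male. Of 7 regions at Ogt, 4 were called higher in knockdown libraries by edgeR, 1 was called lower and 2 were not called. At the region over the start end of Ogt, one of the higher ones, accessibility was 16.8, 14.9 and 14 CPM in knockdown libraries, against 11.1, 11.6 and 9.66 CPM in control libraries. The other higher regions averaged 10.3 ± 1.75, 4.20 ± 0.862 and 1.64 ± 0.463 CPM in knockdown libraries and 5.84 ± 1.04, 1.63 ± 0.276 and 0.698 ± 0.0512 CPM in control libraries (SD, n = 3 each). The lower region, inside the gene, was at 0.853, 0.709 and 0.760 CPM in knockdown libraries and 1.52, 1.60 and 1.46 CPM in control libraries. The labels do not say which part of Ogt is floxed, so none of these regions checks the deletion.

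Libraries held 12698758 to 24440507 reads in regions, and 3 reads corresponded to 0.123 to 0.236 CPM. Summed accessibility at gene ends of dopaminergic marker genes ranged from 218 to 286 CPM in knockdown libraries and from 229 to 454 CPM in control libraries, over 7 of 9 markers with such a region. Astrocyte markers (5 of 6 with a region) ranged from 61.7 to 91.4 CPM in knockdown libraries and from 56.3 to 58.3 CPM in control libraries. Oligodendrocyte markers (8 of 8) ranged from 54.5 to 98.8 CPM in knockdown libraries and from 76.2 to 83.8 CPM in control libraries. GABAergic markers (4 of 6) ranged from 39.6 to 49.5 CPM in knockdown libraries and from 22.8 to 37.5 CPM in control libraries. Glutamatergic markers (2 of 3) ranged from 12.7 to 23.5 CPM in knockdown libraries and from 20.2 to 23.5 CPM in control libraries. No marker region was at 0. Fewer nuclei of a cell type and less accessibility per nucleus cannot be told apart in such pooled nuclei.

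Few of the 518 regions lay on promoters, and the sequences of those promoters are shown first because they turned out to share a run of letters. A promoter window here is the stretch from 250 bases before to 50 bases after a gene's start, from RefSeq on GRCm38.p6, the assembly also called mm10. The table used covers the chromosomes of 498 members, of which 16 overlapped a window (3.21%), 9 of them that of a protein-coding gene (1.81%). Among all autosomal regions weighted to the members' distribution of mean CPM, the shares were 2.63% and 1.76%. Members thus lay on promoters about as often as regions of similar accessibility. Of all patterns of 6 letters, 3 open positions and 5 letters on either strand, ACTACANNNCCCAG was the one found in most of the 16 windows. It was in 7 of them (43.75%), and the next commonest pattern, itself a variant of the same letters, in 5. Of the 13813 windows of any gene that overlapped an autosomal region, 345 held it (2.5%). Among the protein-coding windows they were found in 4 of 9, against 314 of 11120 (2.82%). The form of the pattern was chosen after the members' sequences had been read, and the letters are those most shared by them, so the member count is a description. The 4 protein-coding windows that hold them follow, together with those of Egr2 and H2bc9, which do not but overlap 2 of the most accessible members. Capitals mark ACTACANNNCCCAG and the other motifs searched, on either strand, and each sequence runs 5′ to 3′ on the strand of the gene.
Fam78a, chr2:32084620-32084919, minus strand: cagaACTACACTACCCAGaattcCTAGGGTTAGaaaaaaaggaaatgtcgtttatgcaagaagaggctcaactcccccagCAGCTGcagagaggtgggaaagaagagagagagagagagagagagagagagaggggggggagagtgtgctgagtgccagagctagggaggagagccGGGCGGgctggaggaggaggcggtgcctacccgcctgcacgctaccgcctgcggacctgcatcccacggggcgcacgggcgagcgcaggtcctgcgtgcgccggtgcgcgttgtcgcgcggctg
Npl, chr1:153549665-153549964, minus strand: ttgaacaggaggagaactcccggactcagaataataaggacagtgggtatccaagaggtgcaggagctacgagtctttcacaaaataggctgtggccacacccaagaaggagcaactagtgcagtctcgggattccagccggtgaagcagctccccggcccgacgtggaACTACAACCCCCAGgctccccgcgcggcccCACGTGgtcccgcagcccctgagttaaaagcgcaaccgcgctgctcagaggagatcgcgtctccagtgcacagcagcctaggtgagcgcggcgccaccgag
Drc7, chr8:95054853-95055152, plus strand: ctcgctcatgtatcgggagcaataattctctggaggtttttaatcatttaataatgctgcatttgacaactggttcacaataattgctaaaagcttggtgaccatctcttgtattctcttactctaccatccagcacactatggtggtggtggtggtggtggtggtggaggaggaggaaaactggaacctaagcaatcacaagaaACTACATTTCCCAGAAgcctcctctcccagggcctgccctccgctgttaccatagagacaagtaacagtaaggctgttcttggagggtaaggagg
Rdh12, chr12:79208663-79208962, plus strand: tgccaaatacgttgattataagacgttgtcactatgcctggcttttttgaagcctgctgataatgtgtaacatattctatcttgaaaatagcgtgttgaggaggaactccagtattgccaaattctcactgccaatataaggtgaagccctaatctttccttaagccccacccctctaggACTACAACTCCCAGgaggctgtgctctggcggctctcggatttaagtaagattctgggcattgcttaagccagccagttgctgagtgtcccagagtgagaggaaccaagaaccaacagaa
Egr2, chr10:67537619-67537918, plus strand: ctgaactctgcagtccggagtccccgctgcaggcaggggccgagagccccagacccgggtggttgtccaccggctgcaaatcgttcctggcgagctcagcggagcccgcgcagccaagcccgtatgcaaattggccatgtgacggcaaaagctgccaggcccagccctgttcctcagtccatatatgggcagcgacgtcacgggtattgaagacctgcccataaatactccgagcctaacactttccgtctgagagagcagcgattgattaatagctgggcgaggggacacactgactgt
H2bc9, chr13:23543395-23543694, minus strand: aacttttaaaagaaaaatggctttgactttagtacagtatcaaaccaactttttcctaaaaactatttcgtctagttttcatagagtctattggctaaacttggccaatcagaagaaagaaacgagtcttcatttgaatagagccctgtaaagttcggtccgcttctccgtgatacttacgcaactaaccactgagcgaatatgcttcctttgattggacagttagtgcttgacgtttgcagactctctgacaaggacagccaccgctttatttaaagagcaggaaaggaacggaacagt
In Fam78a the letters are the run ACTACACTACCCAG, followed by a MEF2 motif, CAGCTG and GGGCGG in capitals. In Npl they are ACTACAACCCCCAG, starting 81 bases before the start site, and the later capitals are CACGTG. In Drc7 they are ACTACATTTCCCAG, 45 bases before the start site, and the 2 further capitals belong to an overlapping TTCNNNGAA. In Rdh12 they are ACTACAACTCCCAG, 70 bases before the start site. The other 3 windows with the letters belong to the non-coding genes Gm39001, Gm35299 and 4930469K13Rik, where the run is on the opposite strand in Gm39001. In 6 of the 7 windows the run lies wholly inside the region, and in Fam78a it crosses the region's edge. The ACTACA and CCCAG letters occur in the sequence known to be bound by the zinc finger protein ZNF143 and in that bound by THAP11, which works with HCFC1. Binding by either was not measured here.

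Across all promoters, those with these letters had a different balance of calls. A count test over all regions (edgeR's quasi-likelihood test, adjusted p under 0.05) called 12.7% of the 191693 regions tested lower and 15.4% higher in knockdown. Of the 10426 regions on a protein-coding promoter it called 515 lower (4.94%) and 3936 higher (37.8%). Of the 283 promoter regions with ACTACANNNCCCAG it called 76 lower (26.9%) and 31 higher (11%). Leaving out the 4 that are members, 72 of 279 were lower (25.8%), against 434 of 10138 without the letters (4.28%). The median edgeR log2 fold change was -0.05 in promoter regions with the letters and 0.24 in those without. Their overall accessibility was similar, with median levels over all libraries of 29.0 CPM with the letters and 24.1 CPM without.

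The difference was seen in each library. The median level of promoter regions with the letters was 28.6, 27.1 and 26.5 CPM in knockdown libraries, against 31.6, 30.5 and 31.0 CPM in control libraries. For promoter regions without the letters it was 25.4, 25.2 and 24.5 CPM in knockdown libraries, against 23.0, 23.2 and 22.6 CPM in control libraries. By these medians, promoters with the letters were lower in all knockdown libraries, while the other promoters were higher on this scale and under TMM, and slightly lower when library totals set the scale. The median log2 fold change with and without the letters was -0.17 and 0.13 on reads in regions, -0.06 and 0.24 with TMM, and -0.32 and -0.02 with library totals. With library totals as the scale, 132 of the regions with the letters were lower (46.6%), against 12.4% of all promoter regions. Leaving out knockdown replicate 1 gave 73 (25.8%, against 4.47%).

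**Figure D1:**
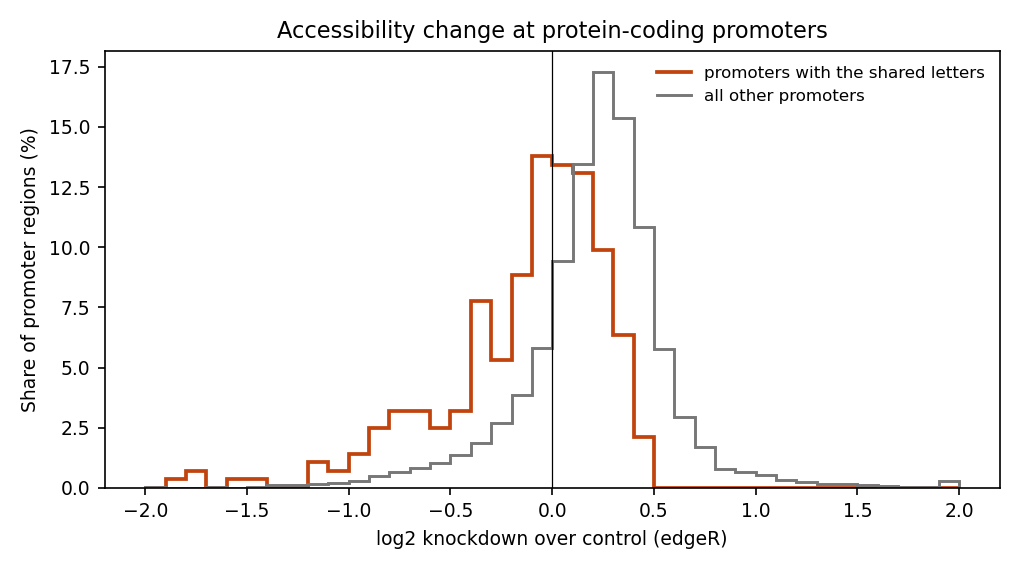
Distribution of the edgeR log2 fold change, knockdown over control, over the 283 protein-coding promoter regions with the letters shared by the member promoters (orange) and the 10143 without them (grey), as the share of regions in steps of 0.1, with values beyond 2 drawn in the end steps. The regions with the letters lie further to the left, with a median of -0.05 against 0.24, and 4 of them are members.

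Of the promoter regions with the letters that are not members, Dnajb13, which encodes a heat shock protein family member of the sperm flagellum and motile cilia, had the lowest fold change. Its region measured 1.99, 2.76 and 3.36 CPM in knockdown libraries, against 8.31, 7.94 and 9.11 CPM in control libraries (edgeR log2 fold change -1.52). Ttc30a1, which encodes an intraflagellar transport protein, measured 6.26, 6.54 and 5.38 CPM in knockdown libraries, against 14.4, 15.3 and 13.7 CPM in control libraries (-1.15). The zinc finger gene Zfp111 measured 4.76, 4.88 and 4.75 CPM in knockdown libraries, against 10.7, 12 and 10.9 CPM in control libraries (-1.11). The groups do not overlap at any of these promoters, but the promoters were picked for their low fold changes, so this largely follows from the pick. At the other end, Mrps22, which encodes a protein of the mitochondrial ribosome, was higher, with 23.2 ± 2.21 CPM in knockdown libraries and 18 ± 1.77 CPM in control libraries (SD, n = 3 each). These genes were picked after their values were seen, from the ends of the list. The promoter of 1700028P14Rik, at -1.12 between Ttc30a1 and Zfp111, was passed over.

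The 15 motifs listed without regard to these windows gave no comparable balance. They were TGANTCA (AP-1), TTCNNNGAA (STAT), TAATTA (homeodomain), TAATCC (OTX and PITX), TGTTTAC (forkhead), AAAGGTCA (NR4A), TGACGTCA (CREB), CACGTG (an E-box), CAGCTG (a second form of E-box), GGGCGG (SP and KLF), and 5 longer motifs given here by name (NFI, the core of CTCF, MEF2, glucocorticoid receptor and RFX), each searched on both strands. Over the 14 with at least 20 tested promoter regions, the share of regions lower ran from 0 to 10.6% and the share higher from 22.1% to 45.8%. The highest share lower was that of TTCNNNGAA, which can overlap the shared letters, since ACTACANNNCCCAG followed by AA holds it when the last 2 open positions are T. Split by that overlap, 27 of 90 regions with both were lower (30.0%), 45 of 592 with TTCNNNGAA alone (7.60%) and 49 of 193 with the shared letters alone (25.4%).

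In the 9 member windows of protein-coding genes, CAGCTG was found in 3 (33.3%, against 15.4% of the 11120 windows) and GGGCGG in 2 (22.2%, against 66.7%). TTCNNNGAA, the MEF2 motif and CACGTG were found in 1 each, against 6.45%, 2.86% and 9.96% of windows. The other 10 of the 15 were in none of the 9, and their shares of all windows ran from 0.0270% for NFI to 4.95% for TAATCC. Between these ends, TGANTCA was in 4.68%, TGACGTCA in 3.33%, CTCF in 2.99%, TGTTTAC in 2.22%, TAATTA in 2.18%, AAAGGTCA in 0.719%, RFX in 0.674% and glucocorticoid receptor in 0.297%. The member windows had a median GC content of 52.3% and 10 CpG, against 62.0% and 22 over all windows on regions. A window without a match says only that these letters are absent from it.

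The members with a promoter can now be given by their values. Fam78a encodes a protein of unknown function, and the region on its promoter (chr2:32084507-32084907) measured 5.62, 5.59 and 4.87 CPM in knockdown libraries, against 17.6, 22.5 and 19.1 CPM in control libraries. A second member lay 1129 bp beyond the gene, at 1.78, 1.26 and 1.71 CPM in knockdown libraries and 9.53, 5.85 and 6.14 CPM in control libraries. Of the other 7 regions assigned to the gene, 4 were called lower and 3 were not called. The lower ones averaged 1.18 to 6.96 CPM in knockdown libraries and 3.32 to 12.2 CPM in control libraries. Those not called averaged 2.47 to 5.46 CPM in knockdown libraries and 2.75 to 5.75 CPM in control libraries.

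Npl encodes N-acetylneuraminate lyase, which breaks down sialic acid. Its promoter region (chr1:153549540-153549940) measured 4.69, 3.54 and 4.37 CPM in knockdown libraries, against 13, 12.2 and 12.8 CPM in control libraries. Inside the same gene, the region at chr1:153507780-153508180 went the other way, with 2.42, 3.23 and 3.10 CPM in knockdown libraries, against 0.686, 0.532 and 0.704 CPM in control libraries. Of the called regions in and around Npl the promoter member was the only lower one, and 3 were higher.

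Drc7 encodes a subunit of the dynein regulatory complex of motile cilia, and its promoter region (chr8:95054911-95055311) measured 2.70, 2.52 and 2.60 CPM in knockdown libraries, against 10.2, 9.98 and 8.85 CPM in control libraries. Another member, inside the neighbouring adhesion receptor gene Adgrg3, measured 1.85, 1.34 and 1.52 CPM in knockdown libraries and 5.64, 4.83 and 5.18 CPM in control libraries. The 2 lie within a span of 18242 bp that holds 4 regions, of which only these 2 were lower and 0 higher. Outside the span, the Drc7 regions at chr8:95064519-95064919 and chr8:95081506-95081906 were called higher. They averaged 3.55 ± 2.03 and 13.3 ± 1.83 CPM in knockdown libraries and 0.807 ± 0.370 and 7.97 ± 0.597 CPM in control libraries (SD, n = 3 each). The remaining non-member regions of Drc7 were not called.

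Rdh12 encodes a retinol dehydrogenase of photoreceptors. The region on its promoter (chr12:79208717-79209117) measured 2.27, 1.81 and 1.52 CPM in knockdown libraries, against 8.16, 7.24 and 6.89 CPM in control libraries. The promoter of its neighbour Rdh11, a related retinol dehydrogenase, also holds ACTACANNNCCCAG and was lower, at 8.39, 7.80 and 5.57 CPM in knockdown libraries and 16.6, 14.1 and 14.2 CPM in control libraries (edgeR log2 fold change -0.94).

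Egr2 is an immediate early zinc finger transcription factor that neurons induce with activity. The region on its promoter (chr10:67537337-67537929) measured 4.62, 3.15 and 3.93 CPM in knockdown libraries, against 14.2, 15.8 and 18.6 CPM in control libraries. The other region measured at Egr2, which is not a member, was at 4.90, 4.96 and 4.24 CPM in knockdown libraries, against 12, 12.8 and 12.8 CPM in control libraries. This other region was called lower by edgeR, while at the member the rule fixed the direction and the gap between the groups. Egr2 was the only one of 22 activity-induced genes listed to have a member nearby. Over the 202 tested regions nearest to those genes, 25 were lower (12.4%) and 45 higher (22.3%), against the 12.7% and 15.4% of all autosomal regions.

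H2bc9 is one of the replication-dependent histone H2B genes, a family of near-identical copies whose reads may be split between them, so its values are uncertain. Its region (chr13:23543312-23543712) measured 6.97, 6.93 and 6.08 CPM in knockdown libraries, against 20.3, 18.5 and 18.8 CPM in control libraries. The remaining protein-coding promoters among the members were those of Ghdc, Ucp1 and Catsper4. Ucp1 encodes the uncoupling protein of brown fat mitochondria, and its region averaged 0.974 ± 0.181 CPM in knockdown libraries and 4.07 ± 0.388 CPM in control libraries. Ghdc averaged 2.15 ± 0.489 CPM in knockdown libraries and 7.40 ± 0.285 CPM in control libraries. Catsper4, which encodes a sperm calcium channel subunit, averaged 0.850 ± 0.0834 CPM in knockdown libraries and 3.18 ± 0.395 CPM in control libraries (SD, n = 3 each).

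Over all 518, the label of closed regions held only in part: accessibility was lower but seldom lost. The knockdown mean had a median of 0.953 CPM and a range of 0.129 to 11.7 CPM, and the control mean a median of 3.86 CPM and a range of 2.0 to 33.4 CPM. The median member thus had a 3.90-fold lower level in knockdown (median log2 fold change -1.96, range -3.96 to -1.46). In no member were all knockdown libraries at 0 reads, in 1 member a single knockdown library was at 0, and in 497 every knockdown library had more than 3 reads. The knockdown mean was still at least 1 CPM in 237 members. Over all autosomal regions, the median of the mean level was 2.21 CPM in knockdown libraries and 2.48 CPM in control libraries.

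By library, the median member measured 0.924, 0.945 and 0.950 CPM in knockdown libraries, against 4.15, 3.76 and 3.65 CPM in control libraries. These medians rest on 13, 12 and 15 reads in knockdown libraries, and on 54.5, 92 and 72.5 reads in control libraries. Knockdown replicates 1, 2 and 3 were the highest of their group in 153, 176 and 189 members. Control replicates 1, 2 and 3 were the highest of theirs in 275, 128 and 115, so the first control library led the others more often. Members were narrow, with 509 of them 401 bp wide (98.3%).

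**Figure D2:**
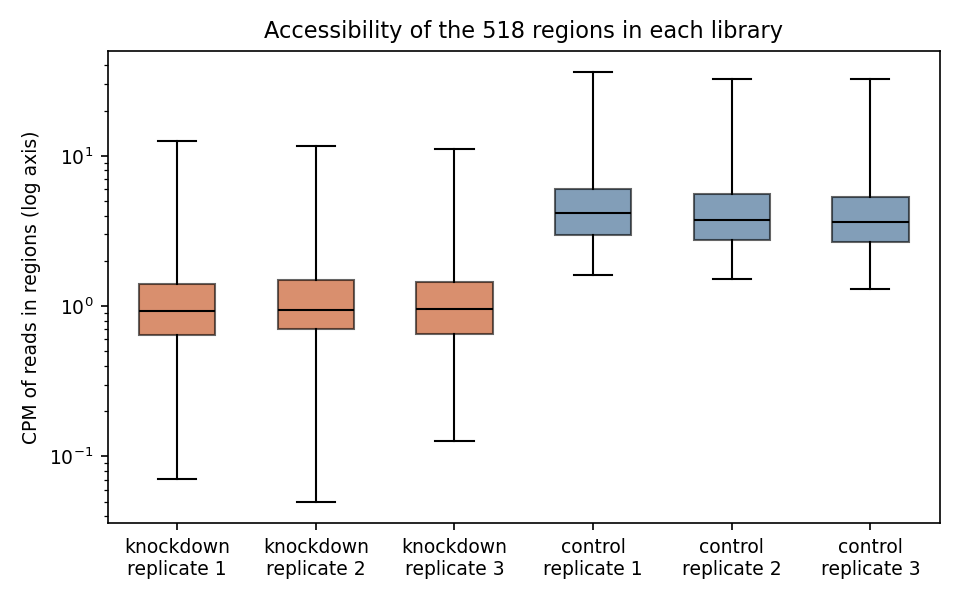
CPM of the 518 regions in each library on a log axis, knockdown libraries in orange and control libraries in blue; boxes give the quartiles and median, whiskers the lowest and highest region, and a region at 0 in knockdown replicate 2 is drawn at 0.05. The rule sets the distance between the groups; within each group the library medians lie close together, at 0.924 to 0.950 CPM in knockdown libraries and 3.65 to 4.15 CPM in control libraries.

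The members most accessible in control libraries were mostly at or near genes. The highest was a region inside Capg (chr6:72538672-72539072), 390 bp from a bound of the gene, which encodes an actin filament capping protein. It measured 7.53, 7.56 and 6.46 CPM in knockdown libraries, against 36.0, 31.8 and 32.4 CPM in control libraries. Next came a region 11108 bp from Dzank1 at 12.6, 11.6 and 11 CPM in knockdown libraries and 32.2, 32.4 and 32.0 CPM in control libraries. It was the member with most accessibility left in knockdown. A region inside 1700008O03Rik, on the promoter window of Gm39001 and with the shared letters, measured 9.38, 7.87 and 7.91 CPM in knockdown libraries, against 30.3, 28.1 and 30.4 CPM in control libraries. Fhit, which encodes a diadenosine triphosphate hydrolase, had a member 909 bp from its start site at 6.11, 6.93 and 7.03 CPM in knockdown libraries, against 29.1, 26.2 and 23.4 CPM in control libraries. The region over the start site of Fhit itself was also lower but less so, at 21.6 ± 1.2 CPM in knockdown libraries and 34.5 ± 1.51 CPM in control libraries. A region 21648 bp from Ier5l measured 3.41, 3.07 and 4.18 CPM in knockdown libraries, against 24.8, 25.6 and 23.5 CPM in control libraries.

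Among the other gene-end members, Trh, which encodes the precursor of thyrotropin-releasing hormone, measured 1.21, 1.81 and 1.9 CPM in knockdown libraries, against 11.6, 12.8 and 13.3 CPM in control libraries, at a region 475 bp beyond the end away from its start. Ctf1, which encodes the cytokine cardiotrophin 1, measured 3.06, 2.99 and 1.52 CPM in knockdown libraries, against 12.9, 13.4 and 11.7 CPM in control libraries. Its more accessible gene-end region went the other way and was called higher, at 18.7 ± 1.47 CPM in knockdown libraries and 13.8 ± 1.5 CPM in control libraries (SD, n = 3 each). Ppp1r12c, a myosin phosphatase subunit gene, measured 1.71, 2.20 and 1.39 CPM in knockdown libraries, against 12, 10.3 and 11.5 CPM in control libraries. Man2b2, which encodes an alpha-mannosidase, averaged 2.36 ± 0.464 CPM in knockdown libraries and 9.54 ± 1.41 CPM in control libraries, and Cfap157, a cilia and flagella gene, 2.60 ± 0.175 CPM in knockdown libraries and 9.28 ± 0.769 CPM in control libraries. Of the 35 members at gene ends, 14 lay within 1000 bp of a listed start site of a protein-coding gene. The rest lay farther from any such start site, and which end of the gene they were at was not counted.

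**Figure D3:**
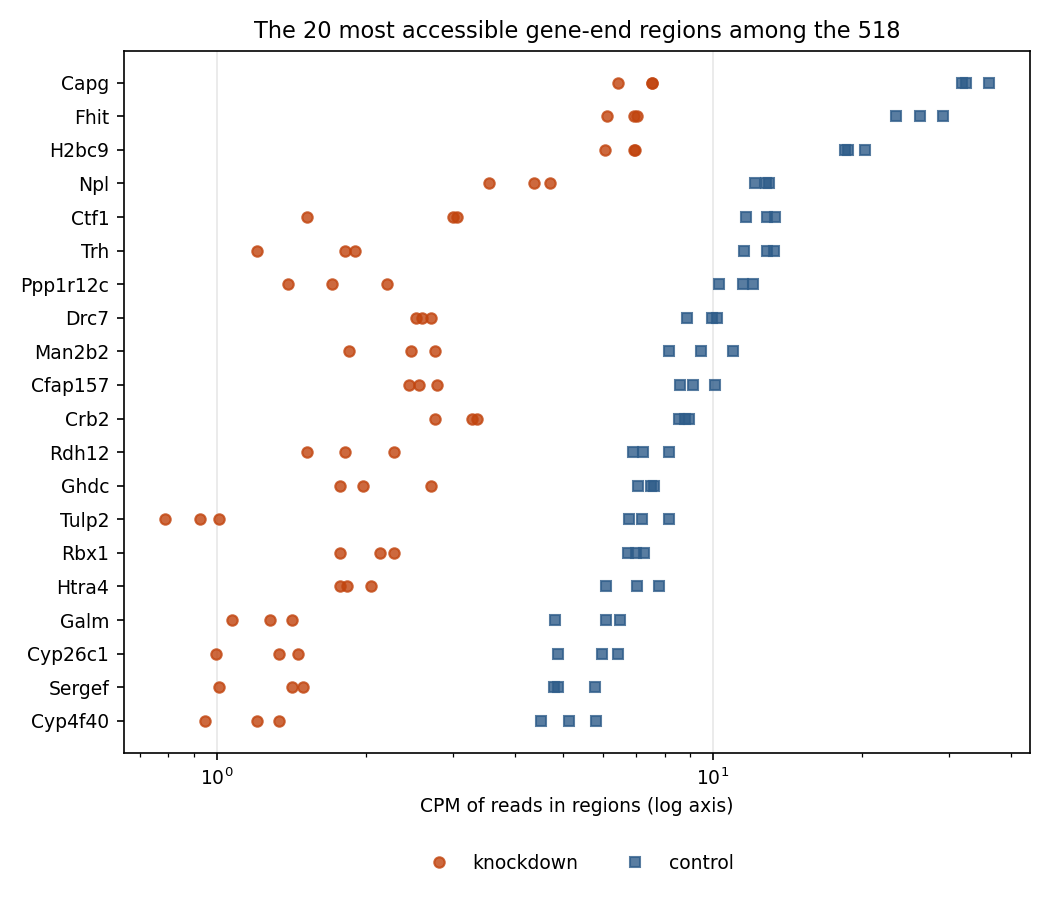
CPM in each library, on a log axis, of the 20 members at gene ends with the highest control mean, named by the gene whose end is nearest and ordered by that mean; circles are knockdown libraries and squares control libraries. Capg lies highest in both groups, with 33.4 CPM in control libraries on average, and Tulp2 shows the largest fold among those drawn, at 0.908 CPM in knockdown libraries and 7.38 CPM in control libraries.

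The 12 members with the largest folds had control means from 2.01 CPM near Gm9595 to 14.2 CPM in Cacna2d4. The median over all members was 3.86 CPM. For several of the 12, few reads remained in knockdown libraries. A region 93855 bp from Gm9595 measured 0.0711, 0 and 0.317 CPM in knockdown libraries, against 2.44, 2.29 and 1.31 CPM in control libraries. A region 222992 bp from Lnpk, which encodes the endoplasmic reticulum junction protein lunapark, measured 0.569, 0.866 and 0.190 CPM in knockdown libraries, against 5.03, 5.56 and 6.24 CPM in control libraries. Of the 12 members with the largest folds, those near Cadm1, Rnf165, Lsm5, Tspan17, Grin2b, Trim72 and Stx11 also lay between genes. Of the gene-end regions of these genes, those of Rnf165, Lsm5 and Stx11 were higher. At Stx11, which encodes a syntaxin, the level was 7.36 ± 0.411 CPM in knockdown libraries and 4.03 ± 0.440 CPM in control libraries. At Tspan17 it was not called, at 54.8 ± 0.596 CPM in knockdown libraries and 57.5 ± 2.42 CPM in control libraries (SD, n = 3 each).

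At the edge of the rule, the members just inside lay in Grm7, Armh4 and Pcsk2. Pcsk2, a prohormone convertase gene, measured 1.07, 0.945 and 1.01 CPM in knockdown libraries, against 2.67, 2.82 and 2.82 CPM in control libraries. Just outside were regions near Lekr1, Pde4d and Akap12, of which Akap12 measured 1.35, 1.26 and 1.27 CPM in knockdown libraries, against 4.50, 4.05 and 3.37 CPM in control libraries. The regions on both sides of the limit look alike in their means.

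In location, the 518 lay more between genes than other regions did. Each share is set beside that of all autosomal regions weighted to the same distribution over 20 classes of mean CPM, called here regions of the same mean CPM. Between protein-coding genes, more than 1000 bp from any end, lay 256 members (49.4%, 95% Wilson interval 45.1% to 53.7%), against 31.0% of regions of the same mean CPM. Within genes lay 227 (43.8%, 39.6% to 48.1%), against 62.4%. Within 1000 bp of a gene end lay 35 (6.76%, 4.90% to 9.25%), against 6.53%. Intervals cover counting error only. The annotation used gives gene bounds without exons, so exons, introns and untranslated parts were not told apart.

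Among the members between genes, those up to 10 kb from a gene made up 14.3% of all members, against 6.94% of regions of the same mean CPM, and those at 10 to 50 kb 18.1%, against 10.3%. At 50 to 100 kb the shares were 7.34% of members and 4.75% of regions of the same mean CPM. Beyond 100 kb the shares were 9.65% and 9.03%. The median distance to a gene was 25784 bp over members between genes and 40666 bp over all autosomal regions between genes, a comparison not matched on CPM. Fewer members lay inside genes at all, and 19.7% of members lay inside a gene of 200 kb or more, against 29.5% of regions of the same mean CPM. For genes of 500 kb or more the shares were 10% of members (7.74% to 12.9%) and 12.4%, which lies within that interval. Per chromosome, members made up 3.12 to 6.17 per 1000 regions with a control mean of at least 2 CPM, lowest on chromosome 15 and highest on chromosome 14.

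Members also lay close to each other more often than other regions lay to them. Another member was found within 50 kb of 40 members (7.72%, 5.72% to 10.3%), against a member within 50 kb of 3.25% of regions of the same mean CPM. Both shares grew with the set where a library was left out of the rule. Without knockdown replicates 1, 2 and 3 they were 11.9% and 4.92%, 12% and 6.20%, and 16.8% and 9.28%, in sets of 814, 1057 and 1438 regions. Without control replicate 3 they were 14.6% and 6.30% in a set of 967. At 10 kb the shares were 2.70% and 0.698%, and at 500 kb 31.9% and 26.3%. Regions were not denser around members, with a mean of 12.2 regions within 50 kb of a member and 13.2 of a region of the same mean CPM. A region higher by the mirrored rule lay within 50 kb of 5.02% of members, against 4.63%. All but 40 members stood alone, and the 19 clusters were 18 pairs and 1 group of 4.

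**Figure D4:**
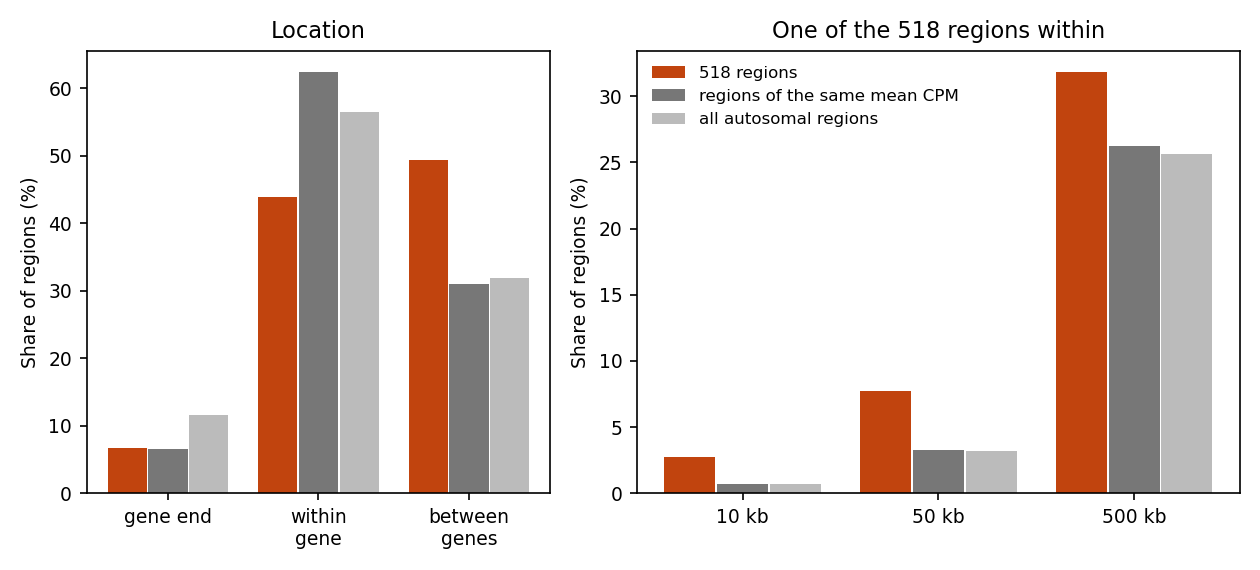
Left, share of regions at gene ends, within genes and between genes; right, share of regions with one of the 518 within 10, 50 and 500 kb. Orange bars are the 518 regions, dark grey bars regions of the same mean CPM and light grey bars all autosomal regions; between genes the shares are 49.4%, 31.0% and 31.9%.

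The group of 4 spanned 63523 bp of chromosome 7 (chr7:45475261-45538783), from Dhdh across Tulp2 to Plekha4. Dhdh encodes a dihydrodiol dehydrogenase, Tulp2 a tubby-like protein and Plekha4 a phosphoinositide-binding protein. The members there were a region inside Dhdh at 0.569, 0.866 and 1.46 CPM in knockdown libraries, against 5.79, 6.14 and 4.73 CPM in control libraries, and one at the end of Tulp2 at 0.924, 0.787 and 1.01 CPM in knockdown libraries, against 8.16, 6.79 and 7.19 CPM in control libraries. Inside Tulp2 the levels were 0.853, 0.394 and 0.317 CPM in knockdown libraries, against 3.81, 3.48 and 2.31 CPM in control libraries. The member inside Plekha4 was the most accessible, at 5.47, 5.51 and 3.55 CPM in knockdown libraries, against 17.9, 18.7 and 18.1 CPM in control libraries. The span was mixed, since of its 13 regions 6 were lower and 3 higher by edgeR. The 6 include the 4 members, whose direction the rule fixed. One of the higher regions was a gene end of Tulp2, at 2.64 ± 0.621 CPM in knockdown libraries and 0.819 ± 0.182 CPM in control libraries (SD, n = 3 each).

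Pairs lay at Iqsec3, which encodes an exchange factor for ARF proteins at inhibitory synapses, where 4 of 6 regions in the span were lower and 0 higher. Here and below, the lower regions of a span include its members, whose direction the rule fixed. The members of the pair measured 1.74 ± 0.356 and 1.81 ± 0.345 CPM in knockdown libraries and 7.56 ± 0.245 and 7.70 ± 0.129 CPM in control libraries. One more member, inside Iqsec3, lay outside the span, at 0.913 ± 0.238 CPM in knockdown libraries and 3.57 ± 0.689 CPM in control libraries. A pair across Srgap1 and Rxylt1 measured 2.03 ± 0.178 and 0.742 ± 0.279 CPM in knockdown libraries and 8.57 ± 1.77 and 3.36 ± 0.655 CPM in control libraries (SD, n = 3 each). Of the smaller pairs, those near Tnfsf11, Med13l and the major histocompatibility gene H2-Eb2 each had 4 lower regions and 0 higher in the span. The 2 members of each pair are among the 4. The 2 members near Tbx5, a T-box transcription factor gene, were the only regions in theirs, 63209 and 67978 bp from the gene. In all, 476 genes were nearest to a member and 39 of them to 2 or more, led by Fat3, a giant cadherin gene, with 4 members at 0.884 to 1.43 CPM in knockdown libraries and 3.14 to 4.53 CPM in control libraries.

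Regions beside the members that the rule did not choose were also called lower more often than elsewhere. Within 2 kb of a member lay 209 other tested regions, of which 61 were lower (29.2%) and 10 higher (4.78%), with a median edgeR log2 fold change of -0.36. Reads of one fragment may fall in both regions at this distance. At 2 to 10 kb 18.3% were lower and 11.4% higher, at 10 to 50 kb 18% and 12%, and beyond 1 Mb 11.2% and 16.2%. Up to 50 kb this came to 1107 of 6014 regions lower (18.4%) and 699 higher (11.6%), against 12.7% and 15.4% of all autosomal regions tested. These calls come from the same libraries as the choice of members and are a description.

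**Figure D5:**
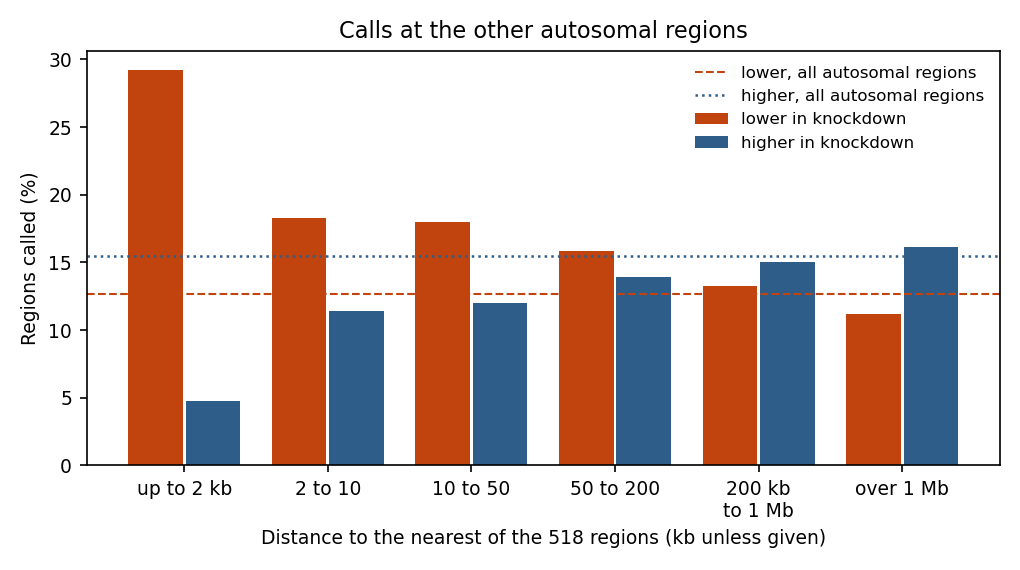
Share of other autosomal regions called lower (orange) or higher (blue) in knockdown by edgeR, by distance to the nearest of the 518 regions; dashed and dotted lines are the shares over all autosomal regions, 12.7% and 15.4%. Lower calls are at 29.2% up to 2 kb and 11.2% beyond 1 Mb, and higher calls at 4.78% and 16.2%.

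The ends of the nearest genes were called lower slightly more often than those of all genes, and higher about as often. Of the genes nearest to a member within 100 kb, 350 had a gene-end region that is not a member, and the most accessible one was lower for 33 genes (9.43%) and higher for 123 (35.1%). Over all 13229 genes with such a region the shares were 7.04% and 34.7%, and the medians of the edgeR log2 fold change were 0.18 for nearest genes and 0.21 for all. Among the genes named here, those lower at both the member and the end region included Cavin1, Fhit, Gabrd and 1700008O03Rik. Genes higher at the end region included Stx11, Ctf1, Cntnap2, Unc5c and Plxna4.

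By gene list, members were few in each, so the counts are given beside the number that regions of the same mean CPM would give. The nearest gene within 100 kb was used, and the lists were drawn up with earlier results of these data known. For GABA receptor genes there were 4 members, against 1.32. Gabrb1 had a pair inside the gene, at 0.640, 0.315 and 0.886 CPM in knockdown libraries against 4.42, 3.15 and 2.31 CPM in control libraries for one, and averages of 1.70 ± 0.322 CPM in knockdown libraries and 5.90 ± 0.353 CPM in control libraries for the other. Gabrd, the delta subunit of extrasynaptic receptors, had a member 1837 bp away at 1.71, 1.97 and 2.34 CPM in knockdown libraries, against 8.0, 6.55 and 8.20 CPM in control libraries. Its gene-end region was also lower, at 4.50 ± 0.822 CPM in knockdown libraries and 7.24 ± 0.596 CPM in control libraries (SD, n = 3 each). Over the whole list, 71 of 476 tested regions were lower (14.9%) and 50 higher (10.5%), against 12.7% lower and 15.4% higher of all autosomal regions tested.

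Potassium channel genes had 6 members, against 4.10, near Kcna2, Kcnb2, Kcnd3, Kcnj3, Kcnk10 and Kcnma1. Kcnj3, an inwardly rectifying channel subunit coupled to G proteins, measured 0.355, 0.236 and 0.443 CPM in knockdown libraries, against 3.20, 2.5 and 1.66 CPM in control libraries. Calcium channel genes had 3, against 2.89. Of these, the region inside Cacna2d4, an auxiliary subunit gene, measured 1.78, 1.34 and 1.96 CPM in knockdown libraries, against 13.9, 14.5 and 14.1 CPM in control libraries, and that inside Cacna1d, an L-type channel pore gene, 1.49, 2.05 and 2.22 CPM in knockdown libraries, against 6.25, 5.73 and 5.74 CPM in control libraries. Over the calcium channel list 187 of 941 regions were lower (19.9%) and 74 higher (7.86%), against the same 12.7% and 15.4%. Sodium channels had 1, at Scn9a, against 0.632.

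Synaptic adhesion genes held 10 members, against 12.2, in Cntn4, Cntn5, Cntnap2, Lrrtm4, Lsamp, Ntm and Ptprd. Cntn4, a contactin of axons, had one at 0.924, 1.42 and 1.84 CPM in knockdown libraries, against 8.31, 6.46 and 5.18 CPM in control libraries. Axon guidance genes held 3, against 5.88, glutamate receptor genes 1 (Grm7), against 4.40, presynaptic release genes 2 (Sv2b and Unc13b), against 2.89, and postsynaptic scaffold genes 0, against 3.47. Sv2b, a synaptic vesicle protein gene, averaged 1.83 ± 0.508 CPM in knockdown libraries and 8.39 ± 1.07 CPM in control libraries (SD, n = 3 each). No member was nearest to a gene of the STAT3 pathway, O-GlcNAc cycling, stress hormone, monoamine and peptide receptor, GABAergic, glutamatergic, astrocyte or oligodendrocyte lists, for each of which at most 1.00 was expected from regions of the same mean CPM.

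The dopaminergic identity list had 1 member, against 0.947, 89456 bp from Lmx1a, a LIM homeobox factor of midbrain dopamine neurons, at 1.07, 1.18 and 0.570 CPM in knockdown libraries and 3.58, 3.81 and 3.97 CPM in control libraries. Lists of cells that the sort should remove held 3. The endothelial and mural list had 2, against 0.322 from regions of the same mean CPM, and the microglia list 1, against 0.176. Astrocyte and oligodendrocyte lists had 0, against 0.66 and 0.391. Such small counts set no list apart. Of the endothelial and mural regions tested, 21 of 116 were lower (18.1%) and 9 higher (7.76%). Of the microglia regions, 7 of 58 were lower (12.1%) and 11 higher (18.97%). Over all autosomal regions tested the shares were 12.7% and 15.4%. Cavin1, which encodes a coat protein of caveolae, had a member inside the gene at 0.995, 0.945 and 0.950 CPM in knockdown libraries, against 9.07, 9.33 and 7.30 CPM in control libraries, and its gene end was lower too, at 6.36 ± 0.964 CPM in knockdown libraries and 10.1 ± 0.770 CPM in control libraries. Cavin2 had one at 0.769 ± 0.191 CPM in knockdown libraries and 2.95 ± 0.330 CPM in control libraries (SD, n = 3 each). The summed endothelial markers (3 of 5 with a region) ranged from 4.57 to 6.47 CPM in knockdown libraries and from 8.38 to 12.4 CPM in control libraries, and their part in the result was not tested. C1qc, a complement gene of microglia, had a member at 3.20, 4.72 and 3.23 CPM in knockdown libraries, against 15.9, 13.9 and 14.5 CPM in control libraries. Microglia markers (1 of 5 with a region) were near 0, at 0.570 to 1.85 CPM in knockdown libraries and 0.381 to 0.900 CPM in control libraries.

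By family, the nearest genes were spread widely. Zinc finger genes had 9 members, against 6.74 from regions of the same mean CPM, cadherins, protocadherins and Fat 8, against 4.80, contactins 5, against 2.77, Rnf and Trim ubiquitin ligases 6, against 3.01, and forkhead genes 3, against 1.44. Predicted genes with Gm or Rik names had 16, against 8.85. T-box genes had 2, against 0.173, both near Tbx5, and histone genes had 1, against 0.0977, at H2bc9. Fewer than that reference were found for solute carriers, with 4, against 8.81, and for ephrins and Eph receptors, with 0, against 1.42. Olfactory and vomeronasal receptor genes had 0, against 0.761. With so many families and such small counts, no family is set apart by these numbers.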

How the data were processed

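ATAC-seq libraries of sorted nuclei were compared, 3 knockdown against 3 control, grouped by the genotype field. The kit named for the libraries is a general kit for DNA, per the labels' protocols, which describe no transposition step. The deposited tables give one common set of 193148 regions on mm10 with whole-number read counts, RPKM values and a signal, per the file headers (Reads, RPKM, Score). Reads were trimmed, aligned and turned into peaks by the authors with Trimmomatic, BWA, SAMtools 1.9, Picard and MACS2 among the tools named, per the submitters' processing notes; their settings, and whether reads were shifted for the transposase, are not stated. The deposited RPKM returned each library's total, of which 31.0% to 38.2% of reads lay in regions, and the deposited signal was the count rescaled to the average library total. Only counts entered the tests.

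CPM was computed from reads in regions. edgeR 4.0.16 (R 4.3.3; quasi-likelihood, TMM, filter on low counts, Benjamini-Hochberg over 191693 regions) gave calls at an adjusted p of 0.05, checked on simulated counts. DESeq2 1.42.0 was an alternative. Gene bounds came from RefSeq protein-coding genes on GRCm38.p6. Members and lists were chosen with earlier results of these data known; all 452 list entries matched a gene. Regions named in the text were the 12 largest folds, the 8 highest control means, the 10 highest gene ends, the 5 largest clusters, up to 2 per list, and 3 on each side of the limit; promoter members, the smaller families and pairs, and the shared letters were added after values were seen. Count intervals cover counting error only. No genome was used, so sequences of regions outside promoter windows were not analysed here.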

Additional observations from a re-analysis of the deposited data

How the results depend on the processing

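The number of members depended on the scale and the limit: 518 as reported, 296 with TMM (all among the 518), 933 with library totals (517 of the 518 among them), 1857 with a limit of 2 times, 171 with a limit of 3 times, and 16 with groups taken from the titles. Leaving out a library gave 638 to 1438: 814, 1057 and 1438 without knockdown replicates 1, 2 and 3, and 638, 743 and 967 without control replicates 1, 2 and 3. A control mean of 3 CPM or more left 364, and no minimum 587. The median log2 fold change of all autosomal regions was -0.11 as reported, 0.00 with TMM (to 2 decimals) and -0.27 with library totals, so TMM moves every difference up by about 0.11; the members' median was -1.86 and -2.12 on these scales, and leaving out a library gave medians of -2.01 to -1.85.

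The share of members with another within 50 kb (7.72%) was 5.41% with TMM, 12.5% with library totals, 19.6% with a limit of 2 times, 7.99% to 16.8% without a library, 2.70% at 10 kb and 31.9% at 500 kb; that of regions of the same mean CPM, added after seeing the data, was 3.25%, 1.79% with TMM, 5.69% with library totals and 3.93% to 9.28% without a library. The share at gene ends (6.76%) was 12.3% with a limit of 3 times, 12.7% with gene ends of 3000 bp and 4.80% to 7.99% without a library. The share within genes (43.8%) was 37.5% with TMM, 52.5% and 34.5% with limits of 2 and 3 times and 43.6% to 55% without a library; that between genes (49.4%) was 41% with a limit of 2 times and 39.3% to 50.6% without a library. Where these shares moved, other regions entered or left the set; the cause was not tested further.

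Other regions within 50 kb called lower (1107) numbered 253 within 10 kb (20.1%), 719 with DESeq2 (11.9%, against 7.73% of autosomal regions), 1963 with library totals (32.6%, against 24.7%) and 689 to 1097 without a library; the lowest, 689 and 704, were without control replicates 1 and 2 (11.4% and 11.7%, against 7.72% and 7.68%). Of all regions, 24251 were lower as reported, 14862 with DESeq2, 47189 with library totals and 14719 to 24959 without a library, with 14857 and 14719 without control replicates 1 and 2. Promoter regions with the shared letters called lower (76) numbered 132 with library totals, 64 with DESeq2 and 53 to 73 without a library. Of 488 recomputed log2 fold changes of named regions, 30 moved by more than their spread between knockdown libraries. No paired analysis was possible because the titles give each library a number of its own, shared by no library of the other group; the replicate numbers used here only name libraries. Depth limits the weakest members: in 21 a knockdown library had 3 reads or fewer.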

Other observations

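On the X chromosome, which the choice of members left out, 13 of 1809 regions with a control mean of at least 2 CPM met the same limit, and 7 met it in the other direction. The most accessible was a gene-end region of Enox2, which encodes a cell-surface oxidase, at 8.10, 3.54 and 4.24 CPM in knockdown libraries, against 29.1, 27 and 31.1 CPM in control libraries. A pair lay at Cacna1f, an L-type calcium channel gene, averaging 0.892 ± 0.0955 and 1.56 ± 0.311 CPM in knockdown libraries and 3.94 ± 0.709 and 5.24 ± 0.0509 CPM in control libraries (SD, n = 3 each).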
